A study of Mus musculus with 40 samples.

Results

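At 5090 sites in mouse macrophages, the summit of a C/EBPb peak lay within 50 bp of the summit of a PU.1 peak. The C/EBPb peak at these sites also overlapped a stretch of the genome called for the chromatin remodeller SMARCA5. These coincident sites were selected on measured positions. From the 30960 peaks of the C/EBPb list, 30895 lay on chromosomes 1 to 19 and X, 18143 of these overlapped a PU.1 peak by at least 1 bp, and 13486 also overlapped a SMARCA5 peak. Leaving out every peak that touched a CTCF peak gave 12319 sites, and the limit on the distance between summits gave the 5090, which were 16.4% of the C/EBPb list. Each site had its own PU.1 peak, so the sites used 7.51% of the 67796 PU.1 peaks. They overlapped 4979 of the 37071 SMARCA5 peaks (13.4%).

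The cells were primary bone marrow-derived macrophages from mice that carried Csf1r-Cre, a recombinase driven in the myeloid lineage, and were either wild type or Smarca5 lox/lox (knockout). Cells of both genotypes were differentiated for 7 days with daily 4-hydroxytamoxifen. C/EBPb, PU.1 and CTCF were each profiled by chromatin immunoprecipitation in untreated cells, with 2 wild-type and 2 knockout libraries, and SMARCA5 was profiled on chromatin cut with micrococcal nuclease in 8 libraries, 2 for each genotype untreated or after 2 h of lipopolysaccharide (LPS) at 10 ng/ml. A further 20 libraries of H3K27ac, from both genotypes untreated or given 100 U/ml of interferon beta or 10 ng/ml of LPS for 1 or 2 h, were not analysed here.

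PU.1 is an ETS-family factor that myeloid cells need in order to form, and it can bind its sites in closed chromatin and open them. C/EBPb is a basic leucine zipper factor that works with PU.1 at macrophage enhancers, where the motifs of both factors often lie side by side. SMARCA5, also called SNF2H, is the ATPase of ISWI complexes, which slide nucleosomes and space them evenly, and CTCF, whose sites were left out, marks insulators and the anchors of chromatin loops.

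Each protein had 1 consensus peak list, on mm39 per the submitters' processing notes. Which of its libraries went into a list is not stated, and 0 value columns were tied to a library. No value below therefore belongs to a genotype or a stimulus, the loss of SMARCA5 in the knockout could not be checked, and the number of reads behind a peak is unknown. The strength of a peak is given by the authors' fold enrichment over local background and by their -log10 q, the significance of the peak, and each is read only within its own list. With no replicates to test over, medians are given with quartiles, and the values on each of the 20 chromosomes serve as a measure of spread, not as a test. Coordinates count from 1, on the reading that the deposited starts count from 0 as in BED files. No sequence and no gene annotation of this build was used, so the sites are given by position.

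The coincident sites were set beside 2 other groups. Offset sites also carried C/EBPb, PU.1 and SMARCA5 without CTCF, but their summits were more than 50 bp apart (7229 sites). Coincident sites without SMARCA5 had summits within 50 bp and touched neither a SMARCA5 nor a CTCF peak (2236 sites).

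Within the window, PU.1 summits were densest some way to either side of the C/EBPb summit and not at the summit itself. The distance between them had a median of 25 bp with quartiles of 14 and 37 bp. The distribution dipped at its centre: 931 sites lay at 0 to 10 bp, or 44.3 per base position counted over both directions, against 1165 sites or 58.3 per position at 21 to 30 bp, and 941 sites or 47.1 per position at 41 to 50 bp. Both summits were at the same base at 46 sites, close to the density of the positions next to it. How the summit of a consensus peak was set is not stated. The fullest 5 bp step on either side was 26 to 30 bp, with 321 sites where PU.1 lay at the lower coordinate and 290 where it lay at the higher one.

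On 18 of 20 chromosomes the density at 0 to 10 bp was below that at 21 to 30 bp. Over all chromosomes the ratio of the densities was 0.761. The 21 to 30 bp step was the fullest at these sites, so a ratio below 1 over all chromosomes followed from that reference. The ratio and the count of chromosomes are a description only. A lower density at 0 to 10 bp was not particular to the sites with SMARCA5. Coincident sites without SMARCA5 had a ratio of 0.827, with the lower density at the centre on 13 chromosomes. Overlapping peaks of CTCF and PU.1 had a ratio of 0.715, and those of CTCF and C/EBPb, with only 96 sites at 0 to 10 bp, had 0.879. The shape of the pairs with CTCF differed, as their density did not fall again towards 50 bp. From 21 to 30 bp to 41 to 50 bp it went from 14.65 to 15.85 per position with PU.1 and from 5.2 to 6.8 with C/EBPb. At coincident sites without SMARCA5 it fell from 23.85 to 18.8. Differences between these ratios were not tested. PU.1 lay at the lower coordinate at 2564 coincident sites (50.4%) and at the higher one at 2480 (48.7%), so neither order along the chromosome prevailed. The strand of the motifs was not read.

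**Figure D1:**
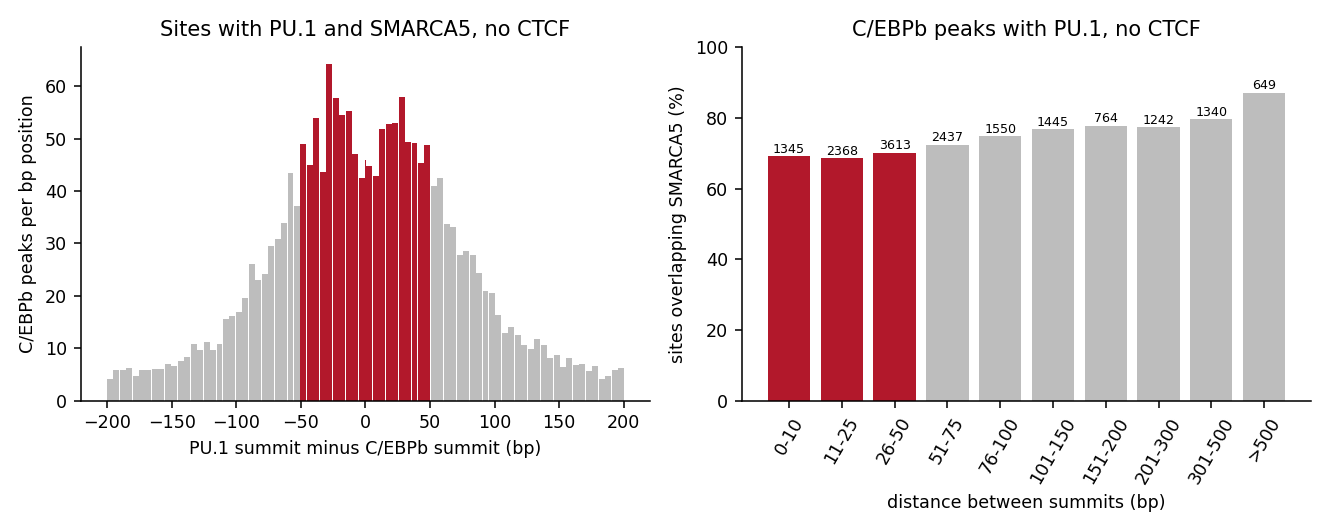
Left, C/EBPb peaks with PU.1 and SMARCA5 and without CTCF, per base position in steps of 5 bp, against the position of the PU.1 summit relative to the C/EBPb summit; red bars are the coincident sites, and the bar at 0 covers 1 position. Right, share of C/EBPb peaks with PU.1 and without CTCF that overlapped SMARCA5, by distance between summits, with the number of peaks above each bar. The counts per position are low within 10 bp of 0, without a further drop at 0 itself, and peak at 26 to 30 bp on both sides. The share with SMARCA5 goes from 69.2% at 0 to 10 bp to 87.2% beyond 500 bp.

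The limit of 50 bp cut through a continuous distribution. The 489 sites at 46 to 50 bp had a median C/EBPb fold enrichment of 11.8 and a median PU.1 fold enrichment of 14.98, against 11.7 and 14.4 for the 391 sites at 51 to 55 bp just outside. The strongest C/EBPb peak at exactly 50 bp lay on chromosome 5 from 100804173 to 100804771, with a C/EBPb fold enrichment of 33.6 and a PU.1 fold enrichment of 20.4. The strongest at 51 bp lay on chromosome 11 from 79178224 to 79178797, with 33.5 for C/EBPb and 13.7 for PU.1.

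Inside the window, C/EBPb peaks were weaker at 0 to 10 bp between summits than at 11 to 50 bp. At 0 to 10 bp the median C/EBPb fold enrichment was 10.7 (quartiles 7.81 and 17.2, 931 sites), and at 11 to 50 bp it was 12.2 (8.46 and 19.4, 4159 sites). The median was lower at the shorter distance on 18 of 20 chromosomes, and so was the median -log10 q, at 47.8 against 60.4. The quartile ranges overlapped widely, so the distance says little about a single site. In 10 bp steps the C/EBPb median was 10.6 at 1 to 10 bp, 12.4, 12.2 and 12.8 in the following 3 steps and 11.8 at 41 to 50 bp. The 46 sites at 0 bp, at 11.9, did not follow the lower value next to them.

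PU.1 peaks showed no such pattern. Their median fold enrichment was 15.1 at 0 to 10 bp (lower quartile 9.36) and 14.7 beyond (lower quartile 9.47), and it was lower at the shorter distance on 7 of 20 chromosomes. Among coincident sites without SMARCA5, C/EBPb fold enrichment at 0 to 10 bp was also the lower, at 11.97 against 13.4 and on 14 of 20 chromosomes. PU.1 there stood at 12.8 and 13.3.

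**Figure D2:**
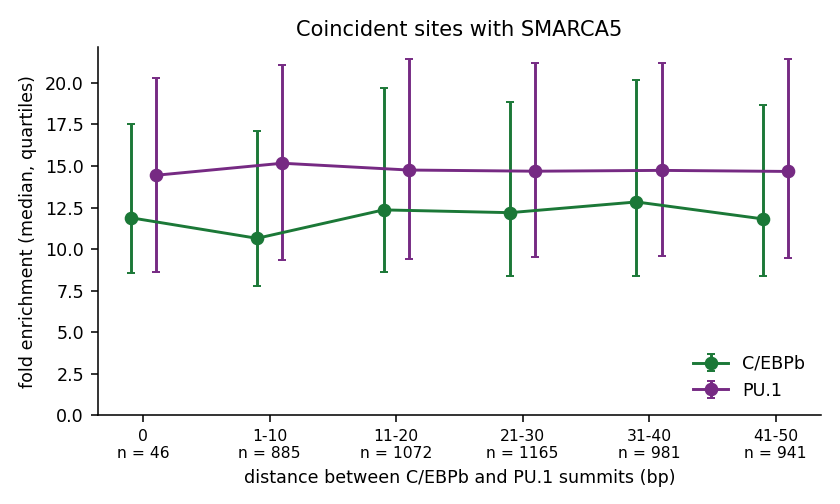
Fold enrichment of the C/EBPb peak (green) and the PU.1 peak (purple) at the 5090 coincident sites, by distance between the summits in bp; points are medians, bars span the quartiles and the number of sites stands under each step. The C/EBPb median is 10.6 at 1 to 10 bp and 11.8 to 12.8 in the other steps, while the PU.1 median stays between 14.4 and 15.2.

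By PU.1 strength the coincident sites stood well above the rest of the PU.1 list, and by C/EBPb strength only slightly above the rest of the C/EBPb list. Their median PU.1 fold enrichment was 14.8 (quartiles 9.46 and 21.3), where the whole list had 11.3. Of the sites, 1121 (22.0%) ranked in the top 10% of the PU.1 list by fold enrichment, where the background is 10% by construction, and 1474 (29.0%) did so by -log10 q, against the same 10%. The median C/EBPb fold enrichment was 12.0 (8.28 and 19.1) against 11.7 in the whole list. By fold enrichment 807 sites (15.9%) ranked in the top 10% of the C/EBPb list, against a background of 10%. The bottom 10% held 574 sites (11.3%), near the background, and 14.5% of the offset sites. By -log10 q, 855 sites (16.8%) were in the top 10% of that list and 538 (10.6%) in the bottom 10%, again against 10%.

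SMARCA5 peaks at these sites were of ordinary height for their list. Their median fold enrichment was 2.06, the whole list had 2.08, and 446 sites (8.76%) lay in a SMARCA5 peak of the top 10% by fold enrichment, against 10%. By -log10 q the share was 13.5% (686 sites), against 10%. The SMARCA5 peaks were wide, with a median of 3242 bp over the sites against 2553 bp over the list, and wide peaks have more room to hold a site.

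Over all distances within the window, coincident sites had slightly higher median strength of both factors than offset sites at all distances beyond it. Median C/EBPb fold enrichment was 12.0 against 11.1, higher on 16 of 20 chromosomes, and median PU.1 fold enrichment was 14.8 against 13.4, higher on 19. The C/EBPb difference of 0.926 fell to 0.454 with a window of 25 bp, and the PU.1 difference of 1.34 was 2.11 with a window of 100 bp. Median C/EBPb -log10 q was 57.7 against 49.9 (higher on 17 chromosomes) and median PU.1 -log10 q was 126 against 107 (higher on 18). In percent the PU.1 difference was 9.95 by fold enrichment and 17.5 by -log10 q, and the C/EBPb difference was 8.36 and 15.5. Shares in the top 10% by fold enrichment were 15.9% against 11.9% for C/EBPb and 22.0% against 16.3% for PU.1. For PU.1 the lower fold enrichments began past 100 bp and not at 50 bp. Over all C/EBPb peaks with PU.1 and without CTCF, called for SMARCA5 or not, the PU.1 median was 14.1 to 14.4 up to 50 bp. It was 14.2 at 51 to 75 bp, 14.5 at 76 to 100 bp and 11.2 to 13.4 in the steps beyond. The C/EBPb median was 11.1 at 0 to 10 bp and 12.7 in the steps from 11 to 50 bp. At 51 to 75 bp it was 12.2, at 76 to 100 bp 11.9, and beyond 10.5 to 11.5.

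The peaks of coincident sites were narrower than those of offset sites on every chromosome of the 20, at a median of 453 against 485 bp for C/EBPb and 522 against 557 bp for PU.1. Wide peaks leave more room for summits to lie apart, and the part of width in the choice of the groups was not tested. The C/EBPb peak was the narrower of the pair at 3397 coincident sites (66.7%). A median of 97.5% of its length was covered by the PU.1 peak, and at 2261 sites (44.4%) it lay wholly inside. At offset sites the median cover was 85.1% and 25.3% lay wholly inside.

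SMARCA5 did not separate coincident from offset sites by height. Median SMARCA5 fold enrichment was 2.06 in both groups, higher at coincident sites on 8 chromosomes and lower on 12. The SMARCA5 -log10 q was 4.28 against 4.46, lower at coincident sites on 18 of 20 chromosomes, and the peaks were 3242 against 3378 bp wide, lower on 14. The width difference of -136 bp was -71 bp with the upper 50% of the SMARCA5 list.

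Against coincident sites without SMARCA5, the medians of the 2 factors went in opposite directions by fold enrichment. Median C/EBPb fold enrichment was 12.0 where SMARCA5 was called and 13.2 where it was not, lower on 19 of 20 chromosomes. The difference lay at the weak end: 11.3% of sites with SMARCA5 and 6.44% of those without were in the bottom 10% of the C/EBPb list, while the upper quartile was 19.1 in both groups and the top 10% held 15.9% and 14.3%. The difference of -1.18 in medians shrank to -0.365 when SMARCA5 peaks wider than 5 kb were left out, and to -0.704 with the upper 50% of the SMARCA5 list. PU.1 was higher where SMARCA5 was called, at 14.8 against 13.2 and on 18 of 20 chromosomes, a difference of 1.57, or 2.38 with the upper 50% of the SMARCA5 list. The PU.1 difference turned to -1.31 when only the upper 50% of the C/EBPb and PU.1 lists by -log10 q was used.

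By -log10 q the PU.1 peaks of the sites with SMARCA5 stood far above those without. The medians were 126 (quartiles 52.2 and 295) and 56.9 (29.5 and 128), a ratio of 2.21, with the higher value at sites with SMARCA5 on 20 of 20 chromosomes. For C/EBPb the medians were 57.7 and 51.7, higher with SMARCA5 on 15. The share in the top 10% of the PU.1 list by -log10 q was 29.0% with SMARCA5 and 9.88% without, where the background is 10%.

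The PU.1 difference in -log10 q remained between peaks of like fold enrichment. All 7326 coincident sites without CTCF, with or without SMARCA5, were ranked by PU.1 fold enrichment and put into 5 equal groups. From the weakest to the strongest group, the median PU.1 -log10 q at sites with SMARCA5 was 1.51, 1.93, 1.97, 1.83 and 1.56 times that at sites without, and in every group it was higher on 20 of 20 chromosomes. In the middle group, the medians were 111 with SMARCA5 and 56.2 without, at fold enrichments of 14.3 and 14.2. For C/EBPb, grouped by its own fold enrichment, the ratios went from 1.13 in the weakest to 1.59 in the strongest group. PU.1 peaks with SMARCA5 were also wider at like fold enrichment, for example 500 against 435 bp in the middle group.

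The scores also differed between the sites with and without SMARCA5. The deposited PU.1 score ended in 0.25 or 0.75 at 46.4% of coincident sites with SMARCA5, at 37.8% of those without and at 36.5% of the whole list. For C/EBPb the shares were 39.9%, 34.2% and 33.4%. Offset sites were close to the coincident sites with SMARCA5, at 45.5% for PU.1 and 40.5% for C/EBPb. How the authors combined calls into a score is not given in the sources used here, and the part of this in the -log10 q difference was not tested.

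**Figure D3:**
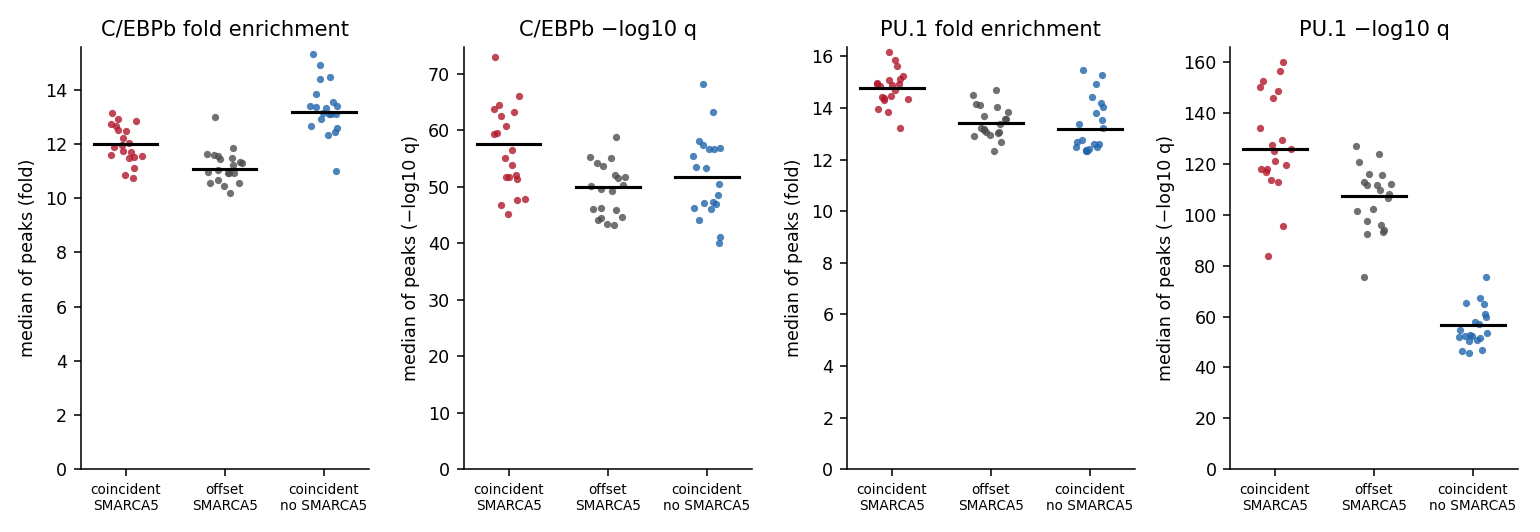
Medians of C/EBPb and PU.1 fold enrichment and −log10 q on each of the 20 chromosomes (points) and over all sites (black lines), at coincident sites with SMARCA5, offset sites with SMARCA5 and coincident sites without SMARCA5. The widest separation is in PU.1 −log10 q, with 126 over all coincident sites with SMARCA5 and 56.9 over those without.

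The share of coincident sites that were called for SMARCA5 rose steadily with PU.1 -log10 q and not with C/EBPb -log10 q. SMARCA5 was part of the choice of sites, so these shares describe how the choice fell. Over the 7326 coincident sites without CTCF, SMARCA5 was present at 5090 (69.5%). Ranked by PU.1 -log10 q into 5 equal groups, the share went from 52.5% through 59.6%, 70.5% and 77.1% to 87.7%. By PU.1 fold enrichment it was 70.0% in the weakest group, 63.7% in the next and 76.2% in the strongest.

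For C/EBPb the shares were lowest in the middle. By fold enrichment the share was highest in the weakest group, at 79.3%, then 68.5%, 64.6% and 65.3%, and 69.8% in the strongest. By -log10 q it was 71.8% in the weakest group, 63.8% in the middle and 77.3% in the strongest. The higher share in the group with the weakest C/EBPb fold enrichment was present at each of 5 levels of PU.1 fold enrichment: from the weakest to the strongest PU.1 level it was 78.1%, 78.5%, 82.6%, 75.9% and 81.8%. In the group with the strongest C/EBPb fold enrichment the shares at the same levels were 71.5%, 65.1%, 70.5%, 69.8% and 71.4%.

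Sites whose summits nearly coincide met SMARCA5 less often than sites whose summits lay further apart. Among all C/EBPb peaks with PU.1 and without CTCF, SMARCA5 was present at 69.5% of 7326 with summits within 50 bp and at 76.7% of 9427 beyond, a difference of -7.21 percentage points. It was negative on 20 of 20 chromosomes, from -13.7 to -0.967 points. With only the upper 50% of the SMARCA5 list by fold enrichment it was -3.88 points. Within 9 groups made from 3 levels of PU.1 and 3 of C/EBPb -log10 q, the difference was negative in all 9, from -11.0 to -3.93 points. Distance and SMARCA5 were both part of the choice of sites, so these shares and counts are a description and not a test. By distance the share was flat inside the window, at 69.2% for 0 to 10 bp, 68.7% for 11 to 25 bp and 70.1% for 26 to 50 bp. It then went from 72.5% at 51 to 75 bp to 79.7% at up to 500 bp and 87.2% beyond 500 bp. Peak width changed along with it: the median PU.1 peak was 500 bp wide at 26 to 50 bp and 883 bp beyond 500 bp, and the part of width in the share was not tested.

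At the coincident sites, the strength of PU.1 said almost nothing about the strength of C/EBPb. Over the 5090 sites the Spearman correlation between the 2 fold enrichments was 0.053, from -0.056 to 0.241 on single chromosomes, and between the -log10 q values it was 0.010. The points share the same 2 lists and, through overlapping windows, the same local chromatin. The correlation of fold enrichments was 0.068 at offset sites and 0.052 at coincident sites without SMARCA5. From the weakest to the strongest of 10 levels of the C/EBPb list, median C/EBPb fold enrichment went from 5.79 to 27.1, while median PU.1 fold enrichment stayed between 13.4 and 15.8.

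Every combination of strengths occurred. By fold enrichment 208 sites (4.09%) were in the top 10% of both lists, where the product of the shares in each list gives 178. The share was 2.34% at offset sites and 3.31% at coincident sites without SMARCA5. Their shares in each list were lower as well, at 11.9% and 14.3% for C/EBPb and 16.3% and 15.7% for PU.1. The coincident sites with SMARCA5 had 15.9% and 22.0%. The lower joint shares alone thus do not show a weaker tie between the 2 factors in those groups. At 103 sites a PU.1 peak of the top 10% met a C/EBPb peak of the bottom 10%, where the product gives 126. At 59 sites a C/EBPb peak of the top 10% met a PU.1 peak of the bottom 10%, where it gives 69.0. Sites in the upper 50% of both lists numbered 1745 (34.3%), those in the upper 50% of PU.1 only 1580, of C/EBPb only 874 and of neither 891. PU.1 fold enrichment had a weak positive relation with SMARCA5 fold enrichment, with a Spearman correlation of 0.141 that was positive on every chromosome (0.028 to 0.275), and C/EBPb had none (correlation -0.002).

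**Figure D4:**
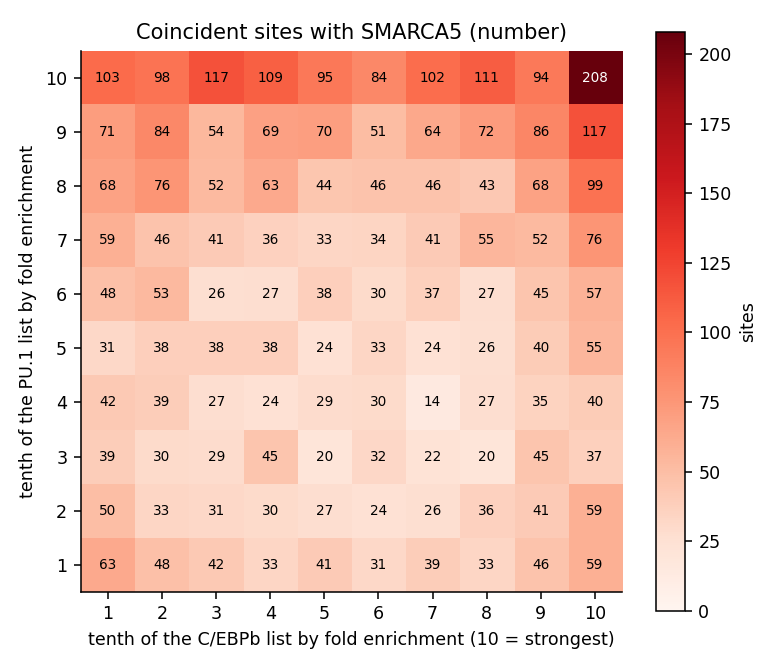
Number of coincident sites with SMARCA5 in each combination of 10 levels of the C/EBPb list (horizontal) and 10 levels of the PU.1 list (vertical) by fold enrichment, where 10 is the strongest. The fullest cell is the strongest of both, with 208 sites, and the upper rows for PU.1 are filled at every level of C/EBPb.

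Single sites show these combinations. The 5 coincident sites with the highest C/EBPb fold enrichment all lay between 34.5 and 35.1 for C/EBPb, but ranged from 7.82 to 24.6 for PU.1. The first was on chromosome 13 from 51864691 to 51865260, where C/EBPb stood at 35.1, PU.1 at 20.9 and SMARCA5 at 2.08, with the summits 9 bp apart. On chromosome 4 from 55349491 to 55350076 C/EBPb also stood at 35.1, but PU.1 at 8.73, with the summits 32 bp apart in a SMARCA5 peak 7255 bp wide. On chromosome 12 from 115121745 to 115122306 the summits were 1 bp apart, with 34.6 for C/EBPb and 7.82 for PU.1. The last 2 PU.1 values lay below the median of the PU.1 list, 11.3, and that on chromosome 13 above its upper quartile, 16.5. The other 2 began at position 150921846 of chromosome 4 and position 84321943 of chromosome 12, with PU.1 values of 15.8 and 24.6.

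The 5 sites led by PU.1 had weak to moderate C/EBPb peaks. On chromosome 7 from 55434270 to 55434598 PU.1 reached 34.6 and C/EBPb 5.41, in a C/EBPb peak of 329 bp under a PU.1 peak of 596 bp. On chromosome 9 from 48470109 to 48470381 PU.1 stood at 34.3 and C/EBPb at 9.64, and the PU.1 -log10 q of 2373 was the highest among the 5090 sites. The site on chromosome 12 from 72015361 to 72015791 had 33.7 for PU.1 and 10.6 for C/EBPb, with the summits 1 bp apart. All 5 had C/EBPb values of 10.6 or less, and the other 2 began at position 151405451 of chromosome 2 (33.6 for PU.1, 9.48 for C/EBPb) and position 10350530 of chromosome 1 (33.6 and 5.59).

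A few sites ranked high for all 3 proteins. By the sum of ranks of fold enrichment the first was on chromosome 15 from 68047393 to 68047965, where C/EBPb reached 33.7, PU.1 30.6 and SMARCA5 2.59, with summits 45 bp apart. The next, on chromosome 14 from 87428020 to 87428572, had 34.2, 33.5 and 2.41 in the same order, with summits 12 bp apart and only 79 bp from the centre of the SMARCA5 peak to the C/EBPb summit. The peak on chromosome 8 from 72762095 to 72762657 had 29.5, 28.0 and 2.76, and that on chromosome 3 from 67483505 to 67484064 had 32.4, 29.8 and 2.32. The last 3 of these 4 also led by the sum of ranks of -log10 q. The other sites among the first 8 by fold enrichment lay on chromosomes 3, 6, 9 and 10, with C/EBPb at 28.1 to 33.2, PU.1 at 26.5 to 29.5 and SMARCA5 at 2.40 to 2.46.

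The highest SMARCA5 peak with a coincident site was on chromosome 8, where SMARCA5 reached a fold enrichment of 3.23 from 85257891 to 85261093. The C/EBPb peak in it, from 85259461 to 85259803, was weak at 7.06, and PU.1 stood at 18.7. The other 4 leading SMARCA5 values, 2.99 to 3.08, were on chromosomes 17, 18 and X, the last with 2 sites. On X the median SMARCA5 fold enrichment at coincident sites was 2.33, against 2.02 to 2.10 on the autosomes, and the whole SMARCA5 list had 2.32 on X and 2.04 to 2.11 on the autosomes. The higher SMARCA5 value on X was thus present in the whole list as well.

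Coincident sites lay towards the centre of their SMARCA5 peaks. The C/EBPb summit was in the inner 50% of the SMARCA5 peak at 3388 sites (66.6%, 58.6 to 71.3% on single chromosomes), where even placement would give 50%. The share was 67.0% at offset sites, a difference of -0.487 points that ranged from -2.12 to 0.0838 over the alternatives tried. The outermost 10% of the peak at the left held 179 C/EBPb summits and that at the right 178. At 50 sites the C/EBPb summit lay outside the SMARCA5 peak that its own peak overlapped. The median distance to the SMARCA5 centre was 508 bp from the C/EBPb summit and 505 bp from the PU.1 summit, and neither factor was the closer one more often (49.2% and 49.9% of sites).

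The inner share was higher where the site was alone in its SMARCA5 peak. At 2898 sites (56.9%) the SMARCA5 peak held 1 C/EBPb peak, 1 PU.1 peak and no CTCF peak. There 72.6% of C/EBPb summits were in the inner 50% and the median distance to the centre was 349 bp, in peaks with a median width of 2498.5 bp. All coincident sites, which include these 2898, had a median SMARCA5 width of 3242 bp. In a peak that holds several sites not all can be central. The part of this choice and of width in the higher share was not tested. Median fold enrichment at these sites was 12.7 for C/EBPb and 17.4 for PU.1, against 12.0 and 14.8 over all coincident sites. At offset sites alone in their SMARCA5 peak the inner share was 70.9%.

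**Figure D5:**
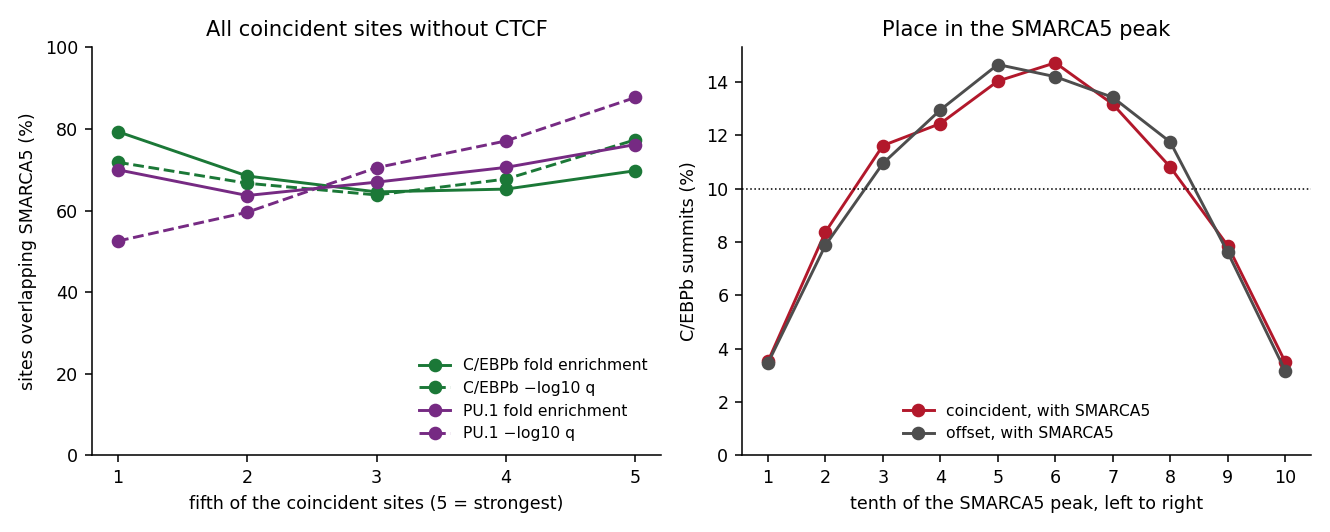
Left, share of coincident sites without CTCF that overlapped SMARCA5, by 5 equal groups of C/EBPb (green) or PU.1 (purple) strength, by fold enrichment (solid) or −log10 q (dashed). Right, share of C/EBPb summits in each of 10 equal parts of the SMARCA5 peak, for coincident and offset sites, with a dotted line at the 10% of even placement. The share by PU.1 −log10 q goes from 52.5% to 87.7%, and both groups of sites are fullest near the middle of the SMARCA5 peak.

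Most SMARCA5 peaks with a coincident site held only 1 (4871 of 4979). Another 105 held 2 and 3 held 3. Other factor peaks shared the SMARCA5 peak with a coincident site often: another C/EBPb peak at 17.8% of sites, another PU.1 peak at 33.0% and a CTCF peak that did not touch the site at 11.6% (589 sites). Offset sites had shares of 17.8%, 31.6% and 12.9%. SMARCA5 peaks with a coincident site had a median width of 3205 bp, against 2458 bp for the other SMARCA5 peaks on these chromosomes.

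The 3 SMARCA5 peaks with 3 coincident sites each spanned 36852349 to 36862001 of chromosome 18 and, on chromosome 8, 66831135 to 66847349 and 123765985 to 123771506. In the first, 9653 bp wide, the 3 C/EBPb peaks had fold enrichments of 15.7, 10.9 and 8.66 and the PU.1 peaks 14.4, 12.3 and 13.8. In the second, 16215 bp wide, C/EBPb went from 30.4 to 4.90 while PU.1 stayed between 11.5 and 12.6. In the third, C/EBPb stood at 11.9, 4.35 and 7.33 and PU.1 at 6.06, 8.40 and 11.9. Sites within 1 SMARCA5 peak thus differed in C/EBPb strength, and the fold enrichment of the SMARCA5 peaks themselves was 1.96, 1.96 and 2.08.

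Coincident sites with SMARCA5 had closer neighbours than those without. The nearest other PU.1 summit was at a median of 5176.5 bp with SMARCA5 and 7878.5 bp without, and the nearest other C/EBPb summit at 9430 and 13698.5 bp. The nearest CTCF summit was at 17967 and 23103.5 bp. At offset sites the distances were 5278 bp to PU.1, 9349 bp to C/EBPb and 17468 bp to CTCF, close to the coincident sites with SMARCA5. From sites without SMARCA5 the median distance to the edge of the nearest SMARCA5 peak was 11857 bp. Within 1 kb of an edge lay 0.894% of them, and within 5 kb 22.9% (513 sites). Whether these sites carried SMARCA5 signal too weak to be called was not tested.

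The coincident sites were spread along the genome at 1.99 per Mb, from 0.534 on X to 2.94 on chromosome 19 and 2.83 on chromosome 11. As a share of the C/EBPb peaks of a chromosome they varied less, from 13.1% on X to 18.9% on chromosome 1. The next coincident site was at a median of 53643 bp. Joined at gaps of up to 10 kb, 4363 sites stood alone, 318 runs had 2 sites, 25 had 3 and 4 had 4. The runs of 4 included chromosome 1 from 161339968 to 161355925, chromosome 2 from 145646587 to 145666899 and chromosome 6 from 113631222 to 113654600.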

How the data were processed

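The material was 4 deposited consensus peak lists, narrow for C/EBPb, PU.1 and CTCF and broad for SMARCA5. The submitters' processing notes name deepTools 3.5.1, MACS2 2.2.7.1, Picard 2.27.4 and STAR 2.7.9a and the build mm39. What each tool did and how calls were made into a consensus is not given in the sources. The authors deposited for each peak a score, a fold enrichment (a ratio over background) and a −log10 q-value, and for narrow peaks a summit. A total of 0 value columns belonged to a library, so no test between groups was possible, and depth is unknown.

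Positions were matched in pandas 2.3.3 and NumPy 2.4.6 under Python 3.11.15, and matplotlib 3.10.9 drew the plots. The class assignment was tested on simulated peaks. Overlap meant at least 1 bp. Where several peaks overlapped a site, the PU.1 peak with the nearest summit and the SMARCA5 peak with the largest overlap gave the values. Named sites are the 5 highest for each protein by fold enrichment, the 8 and 5 lowest sums of ranks by fold enrichment and −log10 q, the 3 SMARCA5 peaks with most sites, and 3 on each side of the window. Runs were named after their values were seen. Sites, lists and rules were chosen with earlier results of these data known. The alternatives tried were windows of 25 and 100 bp, an overlap of 50%, the upper 50% of lists, autosomes only, SMARCA5 peaks over 5 kb left out, counting from the PU.1 list, −log10 q above 2000 left out, strength by −log10 q and distances by edge. Motifs and nearby genes were not analysed here.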

Additional observations from a re-analysis of the deposited data

How the results depend on the processing

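Of 95 values under alternative settings, 87 kept their direction and moved by less than 1 SD over chromosomes (counts by less than 1.5 times), 6 moved further and 2 reversed. For some results that SD was near or above the value itself, so staying within it says little. It was 254 bp for the SMARCA5 width difference of -136 bp and 2.90 points for the inner-50% difference of -0.487. For the C/EBPb difference of 0.926 from offset sites it was 0.829. Some settings barely changed the sites, such as 5003 on autosomes and 5086 without −log10 q above 2000. Some of the 87 still changed by over 1.5 times, and these stand beside the results. The number of coincident sites was 2557 within 25 bp, 8017 within 100 bp, 2229 in the upper 50% of SMARCA5 peaks by fold enrichment and 2167 with the upper 50% of the C/EBPb and PU.1 lists by −log10 q, as these limits imply, and 3932 to 5132 otherwise. With the upper 50% of the SMARCA5 list the difference in SMARCA5 share was -3.88 points. The PU.1 excess over offset sites was 17.5% by −log10 q. The inner-50% difference from offset sites, -0.487 points, turned to 0.0838 within 25 bp and was as low as -2.12 with the upper 50% of both factor lists. PU.1 fold enrichment minus that of sites without SMARCA5 turned to -1.31 with the upper 50% of both factor lists; the cause was not tested. The C/EBPb difference from offset sites was 0.454 to 1.27 and that between short and long distances -1.63 to -1.09. Leaving out −log10 q above 2000, and the alternatives for sites without SMARCA5 and for short distances, were chosen after seeing the data. No paired analysis was possible because no peak carries a value of a single library. Sequence windows were not run without an mm39 genome. Depth is unknown, so sites outside a list may still be bound.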
